A study of Sus scrofa with 6 samples.

Results

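The dystrophin-glycoprotein complex was followed in differentiating satellite cells of the pig, from which new muscle fibers are built. Its members were given as 8 gene symbols, namely DMD, UTRN, DAG1, SGCA, SGCB, SGCD, SGCE and DTNA. The rule that names them uses no measured value, but the set was chosen with earlier results of these data known. A row of the deposited table could be paired with 5 of the 8 (DMD, UTRN, SGCA, SGCE and DTNA), out of 28266 rows in all. DAG1, SGCB and SGCD were not analysed here. The 6 libraries came from satellite cells of skeletal muscle of Yorkshire pigs, 3 harvested after 24 h of differentiation and 3 at a later time. The series title and the paper give 36 h for the later time, which is used here, whereas the sample labels give 48 h. According to the paper the cells were isolated from neonatal male pigs, separated from fibroblasts by letting those attach first to an uncoated dish, and differentiated in medium with horse serum. The libraries carry the letter N, with which the paper marks cells that received negative control siRNA, although the labels name no siRNA. If so, both groups carry the same control siRNA. Whether the 3 libraries of a group came from separate animals or cultures is not given in the sources used here, so p-values measure the spread between these libraries, which may be technical.

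The complex links the actin cytoskeleton of a muscle fiber, through the plasma membrane, to laminin in the basal lamina. Dystrophin, encoded by DMD, binds actin at one end and beta-dystroglycan at the other, and utrophin is its paralog. Dystroglycan (DAG1) binds laminin through sugars on its alpha subunit, the sarcoglycans and sarcospan stabilize it in the membrane, and dystrobrevins and syntrophins attach signaling proteins on the cytoplasmic side. Loss of dystrophin causes Duchenne muscular dystrophy, and loss of alpha-sarcoglycan, encoded by SGCA, causes a form of limb-girdle muscular dystrophy.

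The authors deposited FPKM values, the fragments of a gene scaled to gene length and to the total of the library. FPKM values come in steps of 1 fragment, from which fragment numbers were recovered, with sums of 16318861 to 16844107 in the 24 h libraries and 17949812 to 21818458 in those of 36 h. All 5 members, with 855 to 17529 fragments per group, were well above the smallest step that the libraries can show. Groups were compared by limma on log2(FPKM + 1) for the 14060 genes whose FPKM averaged 1 or more, with Benjamini-Hochberg adjustment over all of them, and a gene was called when the adjusted p was under 0.05. The added 1 makes the changes of weakly expressed genes look smaller than they are. The median log2 change of all genes tested was -0.16, and it was -0.01 after scaling each library by the median ratio of its genes, so a change near -0.16 on the deposited scale is that of the typical gene. With bulk RNA, fewer cells of a type and less RNA per cell cannot be told apart. One label of the extraction names the endometrium, against the satellite cells of the other labels. Of 6 endometrial markers with a row, PGR was at 0 in every library, EPCAM, FOXA2 and ESR1 reached an FPKM of at most 0.04, 0.02 and 0.26, and HOXA10 lay between 13.2 and 15.8. CDH1, the E-cadherin gene of epithelia, had 0.417, 0.430 and 0.107 at 24 h and 4.36, 4.18 and 2.35 at 36 h and was called higher (log2 change 1.79, limma adjusted p = 0.00155). The part of endometrial cells in the values was not tested. DES, the muscle intermediate filament gene, lay between 1452 and 3367.

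DMD and SGCA were higher at 36 h than at 24 h, by 1.75-fold and 1.68-fold, and SGCE was lower by 2.30-fold. DTNA was 1.52-fold higher in mean FPKM without passing the test, and UTRN changed by less than the spread between libraries. Thus 3 of the 5 members were called, 2 higher and 1 lower. Among all genes tested 50.9% were called, 16.5% higher and 34.4% lower, so the share called among the members is near that of all genes. In 4 of the 5 members the 3 libraries of one group did not overlap the 3 of the other, beside 63.6% of all genes tested. The median log2 change of the 5 members was 0.71, beside -0.16 for all genes tested. With 5 genes this median is the value of DTNA, which was not called and was 0.28 without 24 h replicate 6.

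**Figure D1:**
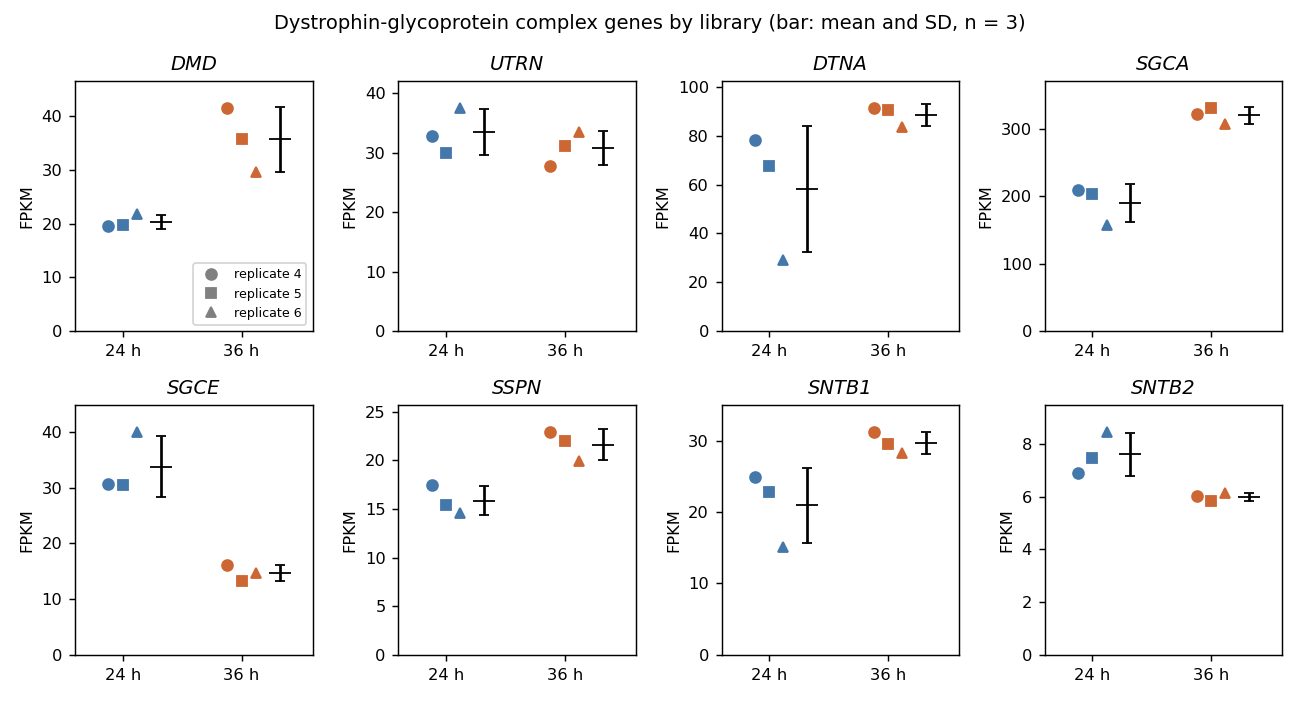
FPKM (vertical axes, from 0) of the 5 members and of SSPN, SNTB1 and SNTB2 in each of the 6 libraries, blue for 24 h and orange for 36 h, with the replicate given by the shape of the point and black bars for the mean and SD (n = 3). The groups overlap in UTRN alone, while among all genes tested 63.6% do not overlap. 24 h replicate 6 is far below the other 24 h libraries in DTNA (29.1) and SNTB1 (15.0).

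DMD (ENSSSCG00000028148) is on chromosome X (Sscrofa11.1, 27028223 to 29650728). Its FPKM was 19.5, 19.8 and 21.8 in the 24 h libraries (replicates 4, 5 and 6) and 41.6, 35.8 and 29.7 in the 36 h libraries. Every 36 h library was above every 24 h library, and the 36 h libraries were spread over a wider range. The means were 20.4 ± 1.26 and 35.7 ± 5.97 (SD, n = 3 each), from 3294 and 7102 fragments. The log2 change was 0.77 (standard error, SE, 0.12, with an adjusted p of 0.00334 by limma), or 0.93 above the median of all genes. The call held in all 15 alternative settings, with log2 changes between 0.65 and 0.94. The gene model behind these values was 3252 bases long, as implied by the steps, which is shorter than the messenger of full-length dystrophin. The DMD gene also encodes shorter proteins from internal promoters, and gene-level values do not separate them.

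UTRN (ENSSSCG00000004123), on chromosome 1 from 20514264 to 21047927, encodes utrophin, which occupies the whole membrane of immature muscle cells and is later concentrated at the neuromuscular junction. Its FPKM was 32.8, 29.9 and 37.5 at 24 h and 27.8, 31.1 and 33.4 at 36 h. The groups overlapped, with the lowest and the highest library in different groups. The log2 change of -0.11 had a 95% interval from -0.36 to 0.14 (limma adjusted p = 0.399), which contains both no change and the median of all genes. Its sign depended on the scaling, since it was 0.06 with median-ratio scaling.

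Dystrophin and utrophin compete for the same place in the complex, so their balance was taken as the ratio of DMD to UTRN within each library, which does not depend on how libraries are scaled. The ratio was 0.596, 0.661 and 0.582 at 24 h and 1.49, 1.15 and 0.889 at 36 h. UTRN exceeded DMD in all 24 h libraries, and DMD exceeded UTRN in 36 h replicates 4 and 5 but not in replicate 6. The mean ratio was 0.613 ± 0.0421 and 1.18 ± 0.304 (SD, n = 3 each). On the log2(FPKM + 1) scale the ratio was higher by 0.88 at 36 h (exact permutation test, two-sided, p = 0.1, the smallest p that 3 against 3 libraries allow). Ratios between genes rest on the gene lengths that the authors used, here 3252 and 4510 bases, whereas the change of the plain FPKM ratio between the groups does not. The added 1 makes the difference of 0.88 depend slightly on gene length and scaling. Without the added 1 the difference was 0.91.

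The sarcoglycans moved in opposite directions. SGCA (ENSSSCG00000017583), on chromosome 12 from 26356691 to 26368561, encodes alpha-sarcoglycan, the muscle-restricted subunit. Its FPKM was 209, 204 and 158 at 24 h and 323, 331 and 307 at 36 h. All 36 h libraries lay above the 24 h libraries, and the lowest value was that of 24 h replicate 6. The means were 190 ± 28.4 and 320 ± 12.4 (SD, n = 3 each), a log2 change of 0.76 (SE 0.12, with an adjusted p of 0.00279 by limma).

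SGCE (ENSSSCG00000015328), on chromosome 9 from 74402714 to 74473904, encodes epsilon-sarcoglycan, the widely expressed paralog of SGCA, whose gene is imprinted in human and mouse. Its FPKM was 30.7, 30.5 and 40.1 at 24 h and 16.1, 13.3 and 14.7 at 36 h. No 36 h library reached the lowest 24 h library, and the highest value was that of 24 h replicate 6. The means were 33.8 ± 5.48 and 14.7 ± 1.38 (SD, n = 3 each), a log2 change of -1.14 (SE 0.12, with an adjusted p of 0.00120 by limma), the largest change among the members. Both sarcoglycan calls held in all 15 alternative settings, between 0.63 and 0.93 for SGCA and between -1.20 and -0.97 for SGCE.

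The ratio of SGCA to SGCE was 6.82, 6.68 and 3.93 at 24 h and 20.1, 24.8 and 20.9 at 36 h. The lowest 36 h ratio was higher than the highest 24 h ratio. The mean ratio was 5.81 ± 1.63 and 21.9 ± 2.56 (SD, n = 3 each), and on the log2(FPKM + 1) scale the ratio was higher by 1.90 at 36 h (exact permutation test, two-sided, p = 0.1, again the smallest p possible). The gene models were 899 bases for SGCA and 959 bases for SGCE. The difference in log2 ratio was 1.64 without 24 h replicate 6.

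**Figure D2:**
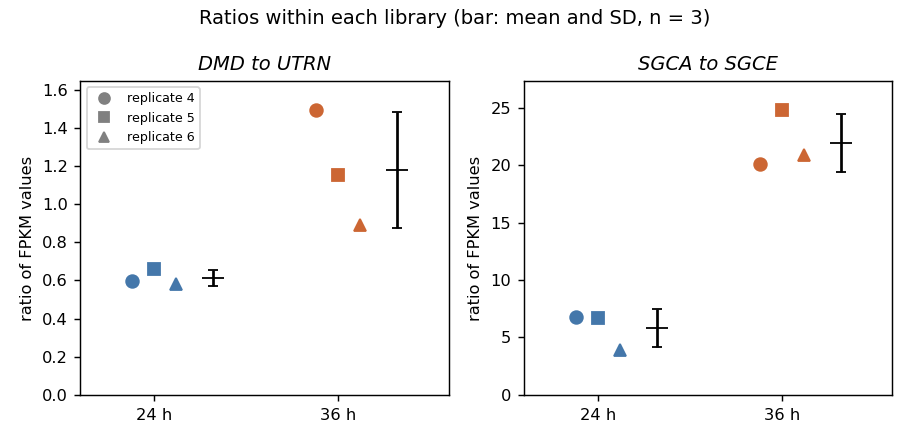
Ratio of FPKM values within each library (vertical axes, from 0) for DMD to UTRN and for SGCA to SGCE, blue for 24 h and orange for 36 h, with replicates by shape and black bars for the mean and SD (n = 3). Both ratios are higher in every 36 h library than in any 24 h library, and 36 h replicate 6 has the lowest 36 h ratio of DMD to UTRN (0.889).

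DTNA (ENSSSCG00000028047), on chromosome 6 from 118333069 to 118753516, encodes alpha-dystrobrevin, which binds dystrophin and carries syntrophins. Its FPKM was 78.1, 67.6 and 29.1 at 24 h and 91.4, 90.5 and 83.4 at 36 h. The groups did not overlap, but 24 h replicate 6 was far below replicates 4 and 5. The means were 58.3 ± 25.8 and 88.4 ± 4.34 (SD, n = 3 each). The log2 change was 0.71 with a 95% interval from -0.10 to 1.52 (limma adjusted p = 0.121), so it did not pass the threshold. It passed without 24 h replicate 6, where it was smaller but more precise (0.28, adjusted p = 0.0283), and without 24 h replicate 4 (0.98, adjusted p = 0.0476). The adjusted p lay between 0.0283 and 0.231 over the 15 alternatives.

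From a list of 8 further genes of the complex, 4 were in the table under a symbol. SGCZ, SNTG1, SNTG2 and DTNB were not analysed here. DRP2, a dystrophin-related protein of peripheral nerve, had 3 fragments in the 24 h libraries and 2 in the 36 h libraries and was not tested. The other 3 were all called, 2 higher and 1 lower, beside 50.9% of all genes called, 16.5% higher and 34.4% lower, and 2 of these 3 calls, those of SNTB1 and SNTB2, did not hold in several alternatives.

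SSPN (ENSSSCG00000025531), on chromosome 5 from 47566266 to 47609330, encodes sarcospan, the tetraspanin-like protein that associates with the sarcoglycans. Its FPKM was 17.5, 15.4 and 14.6 at 24 h and 23.0, 22.0 and 19.9 at 36 h, without overlap. The log2 change was 0.43 (SE 0.09, with an adjusted p of 0.00868 by limma), and it was called in all 15 alternatives.

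The syntrophins are adaptors that bind dystrophin and dystrobrevin through their C-terminal part and ion channels or nitric oxide synthase through a PDZ domain. SNTB1 (ENSSSCG00000005994), on chromosome 4 from 18288756 to 18524362, had an FPKM of 24.9, 22.8 and 15.0 at 24 h and 31.3, 29.6 and 28.3 at 36 h. As in DTNA, 24 h replicate 6 was the lowest library. Its log2 change of 0.51 (SE 0.18, with an adjusted p of 0.0460 by limma) lay close to the threshold. SNTB2 (ENSSSCG00000028109), on chromosome 6 from 17674587 to 17774550, had 6.89, 7.46 and 8.47 at 24 h and 6.01, 5.84 and 6.14 at 36 h. Every 36 h library was below the 24 h libraries, although the change of -0.29 was small (SE 0.09, with an adjusted p of 0.0333 by limma). The call of SNTB1 was lost in 6 of the 15 alternatives, among them without 24 h replicate 5 (adjusted p = 0.0647) and without 36 h replicate 4, 5 or 6 (0.123, 0.111 and 0.0848), the whole range being 0.0139 to 0.123. That of SNTB2 was lost in 8, among them median-ratio scaling (-0.14, adjusted p = 0.193), without 24 h replicate 5 or 6 (0.0799 and 0.0528) and without 36 h replicate 4, 5 or 6 (0.0817, 0.109 and 0.0674), with a range from 0.0262 to 0.247.

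Ordered by FPKM, a level per gene length, SGCA was the highest complex gene in both groups and DTNA the second. At 24 h the mean FPKM then descended from SGCE (33.8) and UTRN (33.4) to SNTB1 (20.9), DMD (20.4), SSPN (15.8) and SNTB2 (7.61). The ranges of the libraries overlapped between the neighbours DTNA and SGCE, SGCE and UTRN, and SNTB1 and DMD, so these pairs had no clear order. At 36 h the order below DTNA was DMD (35.7), UTRN (30.8), SNTB1 (29.7), SSPN (21.6), SGCE (14.7) and SNTB2 (6.0). Here DMD, UTRN and SNTB1 overlapped from one neighbour to the next. DMD thus had rank 6 of 9 genes at 24 h and rank 3 at 36 h, and SGCE had rank 3 and rank 7, with DRP2 last in both groups.

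One library at 24 h stood apart from the other two in most of these genes. Replicate 6 had 0.399 times the mean of replicates 4 and 5 in DTNA, 0.630 times in SNTB1, 0.763 times in SGCA and 0.889 times in SSPN. It had 1.31 times that mean in SGCE, 1.2 in UTRN, 1.18 in SNTB2 and 1.11 in DMD. The same library had 0.534 times the summed FPKM of the other two in 12 sarcomere genes and 2.21 times in 8 cell cycle genes. In DTNA, SNTB1, SGCA, SSPN, SGCE and SNTB2 it was thus the 24 h library farthest from the 36 h libraries, whereas in DMD it was the nearest. The part of this library's state in the values was not tested. Without it, the fold changes were 1.82 for DMD, 1.55 for SGCA, 1.31 for SSPN, 1.24 for SNTB1 and 1.21 for DTNA in the higher direction, and 2.08 for SGCE and 1.2 for SNTB2 in the lower direction.

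**Figure D3:**
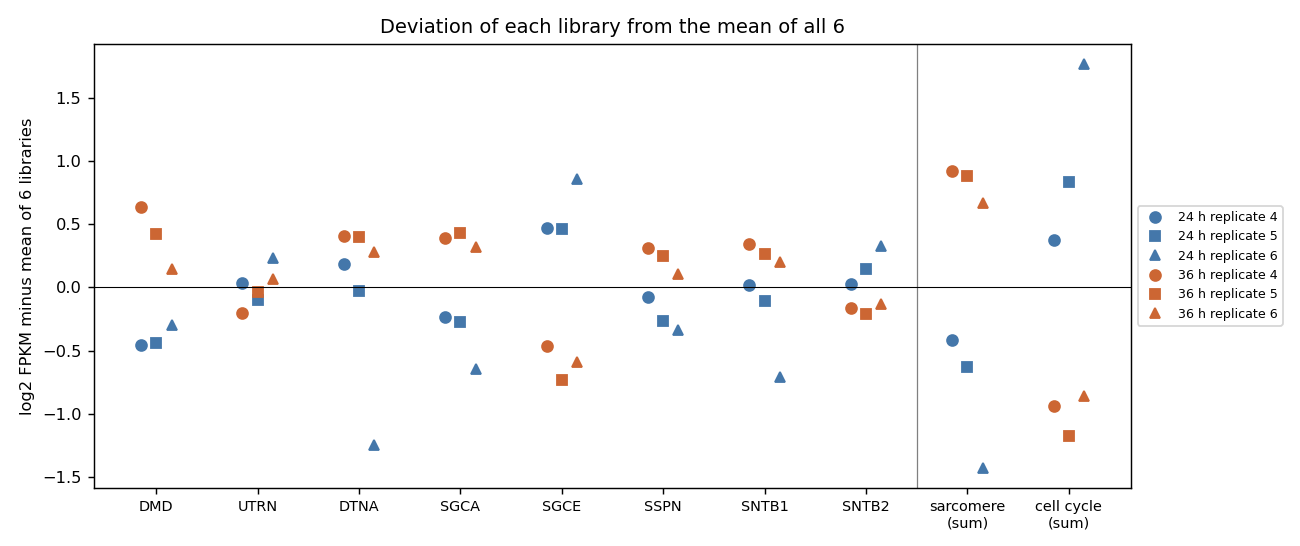
Deviation of each library from the mean of all 6 (vertical axis, log2 FPKM) for 8 complex genes and, right of the line, for the summed FPKM of 12 sarcomere and 8 cell cycle genes, blue for 24 h and orange for 36 h, with replicates by shape. 24 h replicate 6 (blue triangle) lies farthest from the 36 h libraries in both sums and in DTNA, SNTB1, SGCA, SSPN, SGCE and SNTB2.

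Dystroglycan binds laminin only after a chain of enzymes has built matriglycan on it, and defects in these enzymes cause dystroglycanopathies. Of 14 genes listed here for this pathway 8 were in the table and 7 were tested. By limma 4 were called lower, 0 were called higher and 3 were not called, while 1 gene, POMGNT1, was higher at an unadjusted p of 0.0399 and 0 were called higher by limma voom. Of all genes 50.9% were called and 34.4% were called lower. The median log2 change of the 7 genes was -0.31, beside -0.16 for all genes. POMGNT2, an early enzyme of the chain, had an FPKM of 4.65, 5.53 and 6.69 at 24 h and 4.25, 3.33 and 4.24 at 36 h. B4GAT1, which primes the chain, had 22.2, 23.9 and 28.4 at 24 h and 17.8, 18.2 and 19.7 at 36 h. RXYLT1, a xylosyltransferase of the chain, had 16.5, 16.4 and 15.7 at 24 h and 12.6, 13.4 and 12.3 at 36 h. In these 3 genes, named for the largest falls, every 36 h library was below every 24 h library. Over the list the groups did not overlap in 5 of the 7 tested genes, in either direction, beside 63.6% of all genes tested. The log2 changes were -0.42 for POMGNT2, -0.40 for B4GAT1 and -0.33 for RXYLT1 (limma adjusted p = 0.0460, 0.0165 and 0.00721).

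The falls in this pathway depended on the setting. With median-ratio scaling 2 genes of the list were called, namely POMGNT1 (0.33) and POMT1 (0.26), both of them higher, and none of the 4 lower calls held. POMGNT1 and POMT1 were named after their values were seen. POMGNT2 was lost without 24 h replicate 5 or 6 (0.104 and 0.0871) and without each 36 h replicate (0.0749, 0.148 and 0.0721), and B4GAT1 without 36 h replicate 4 or 5 (0.0559 and 0.0601). RXYLT1 stayed called without any single library. LARGE2, a matriglycan polymerase, had 25 and 10 fragments per group and was not tested.

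Among the extracellular partners, 7 of 10 listed genes were in the table and tested, with 3 called higher, 1 lower and a median log2 change of 0.07. The share called is near the 50.9% of all genes. LAMA1, LAMA2 and LAMA5, which encode laminin alpha chains, were not analysed here. LAMA4, the laminin alpha-4 chain, had an FPKM of 8.17, 7.07 and 1.85 at 24 h and 18.5, 14.6 and 14.6 at 36 h. The groups did not overlap, and 24 h replicate 6 was again the lowest. Its log2 change was 1.49 (SE 0.42, with an adjusted p of 0.0245 by limma), it was 0.96 (adjusted p = 0.00175) without that library, and the call was lost without 36 h replicate 4, 5 or 6 (0.0778, 0.0630 and 0.0574). The beta chains moved apart, with LAMB2, the beta-2 chain, at 0.41 (adjusted p = 0.00264) and LAMB1, the beta-1 chain, at -0.50 (adjusted p = 0.0181). LAMB2 was called in all 15 alternatives. LAMB1 was lost with median-ratio scaling (-0.33, adjusted p = 0.0564) and without 36 h replicate 5 or 6 (0.0673 and 0.0575). BGN, which encodes the proteoglycan biglycan, a ligand of dystroglycan and of sarcoglycans, went from 180 ± 16.9 to 228 ± 10.8 (SD, n = 3 each; log2 change 0.34, adjusted p = 0.0152). The call of BGN did not hold without 36 h replicate 5 (adjusted p = 0.0634).

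BCAM and ITGB1, from a list of genes for laminin receptors other than dystroglycan, moved in opposite directions. Of 4 listed genes 3 were tested, with 1 higher and 1 lower, beside 50.9% of all genes called, 16.5% higher and 34.4% lower. ITGA7 was not analysed here. BCAM, the Lutheran glycoprotein that binds laminin alpha-5, had 59.5, 51.2 and 26.9 at 24 h and 152, 158 and 136 at 36 h. Its log2 change was 1.74 (SE 0.27, with an adjusted p of 0.00299 by limma). ITGB1, the integrin beta-1 chain, had 358, 360 and 425 at 24 h and 283, 274 and 279 at 36 h, a log2 change of -0.45 (SE 0.08, with an adjusted p of 0.00540 by limma). Neither gene overlapped between the groups, as was the case in 63.6% of all genes tested. The calls of BCAM and ITGB1 held in all 15 alternatives. CD151 was not called in the main comparison (-0.28, adjusted p = 0.223), but passed when the replicate block was added (adjusted p = 0.0313).

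On the cytoplasmic side, 10 of 14 listed partners were in the table and 7 were tested, of which 2 were higher and 2 lower, a share called that is again near 50.9%. CAV3, PLEC and SYNM were not analysed here. NOS1, the neuronal nitric oxide synthase that dystrophin and syntrophin hold at the membrane of mature fibers, had 4 fragments at 24 h and 2 at 36 h. DYSF, which encodes the membrane repair protein dysferlin, had 2.17, 1.69 and 0.995 at 24 h and 14.2, 10.7 and 6.28 at 36 h, the largest change among the complex, glycosylation, ligand, receptor and partner genes tested (2.08 on the log2 scale, SE 0.29, with an adjusted p of 0.00223 by limma). Replicate 6 was the lowest 36 h library in DYSF, as in DMD, SGCA, DTNA, SSPN, SNTB1, LAMB2, BCAM and DES. It was also the lowest 36 h library in the summed FPKM of the sarcomere genes, at 20080 beside 24010 and 23320. In LAMA4 and BGN, which were also called higher, it was not the lowest. DES, the desmin gene, had 1846, 1781 and 1452 at 24 h and 3367, 3305 and 2875 at 36 h (log2 change 0.91, limma adjusted p = 0.00202). The calls of DYSF and DES held in all 15 alternatives.

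The lower partners were KIF5B, a kinesin heavy chain that binds dystrobrevin, and MARK2, a kinase of cell polarity. KIF5B changed by -0.42 (limma adjusted p = 0.0151) and MARK2 by -0.19 (adjusted p = 0.0321). With median-ratio scaling neither was called (-0.25 and -0.03, adjusted p = 0.127 and 0.735). KIF5B was also lost without 24 h replicate 5 (0.0531) and without 36 h replicate 4 or 5 (0.0522 and 0.0550), and MARK2 without 24 h replicate 4 or 5 (0.0667 and 0.0717) and without 36 h replicate 4 or 5 (0.0832 and 0.121).

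**Figure D4:**
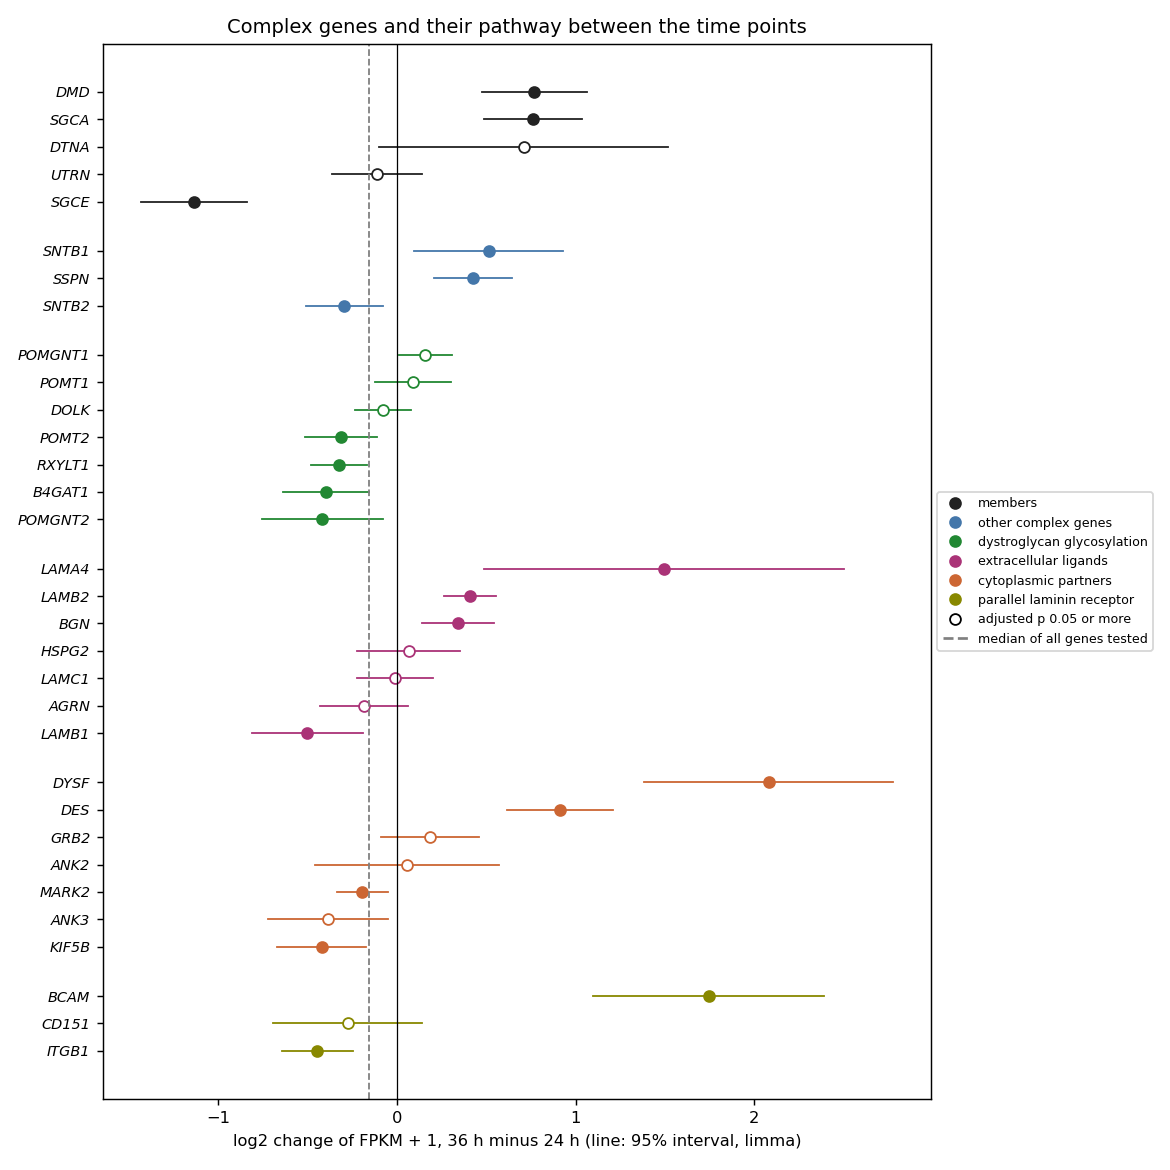
log2 change of FPKM + 1 from 24 h to 36 h (horizontal axis) with its 95% interval from limma for the tested genes of 6 lists, colored by list. Filled points were called at an adjusted p under 0.05, open points were not, and the dashed line marks the median of all genes tested (-0.16). DMD and SGCA lie at 0.77 and 0.76, and SGCE at -1.14.

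Markers of the cells that could be in these cultures were set beside the complex. Of 7 myogenic markers with a row, 5 were called higher, and the other 2, MYOD1 and MYF5, were not called (log2 changes -0.29 and -0.48, limma adjusted p = 0.133 and 0.106). The shares over all genes tested were 50.9% called, 16.5% higher and 34.4% lower. The summed FPKM of the myogenic markers was between 2819 and 4895 at 24 h and between 9705 and 10990 at 36 h. Most of it came from ACTA1 (mean 1248 at 24 h and 5572 at 36 h) and DES (1693 and 3182). Of 7 fibroblast markers with a row, 6 were tested, 2 higher and 3 lower, and their sum was 932 to 1003 at 24 h and 827 to 1033 at 36 h. Nearly all of this sum came from COL1A2, which fell from 693 to 451 in the mean, and COL3A1, which rose from 241 to 443. The collagen gene COL3A1 (log2 change 0.88) and POSTN (0.47) were higher, and COL1A2 (-0.62), DCN (-1.48) and LUM (-1.19) were lower, with limma adjusted p between 0.000640 and 0.00913. FAP was not called (-0.20). PDGFRA, which marks fibroblasts and their progenitors, was at most 0.68 and not tested, with 71 fragments at 24 h and 16 at 36 h. The part of non-myogenic cells in the SGCE values was not tested. Of the smooth muscle markers MYH11 was at most 0.03, while SMTN lay between 8.81 and 11.9 and CNN1 between 2.55 and 4.39, neither of them called, and ACTG2 was lower at 36 h (2.33 to 1.08 in the mean). The remaining smooth muscle marker, DES, is also on the myogenic list and was called higher (log2 change 0.91). Of the endothelial markers KDR was at 0, TEK was at most 0.02 and PECAM1 lay between 1.01 and 1.67. Of the immune markers PTPRC was at 0 and CSF1R at most 0.06, CD68 lay between 0.634 and 2.40 without being called, and CD14 was lower at 36 h (2.59 to 1.18 in the mean). The 2 Schwann cell markers summed to at most 0.203 and the 2 adipocyte markers to at most 0.557.

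For 3 of the members, the genes with the most similar profile were sought among 7876 tested genes with a symbol, by the root mean square difference of log2(FPKM + 1) over the 6 libraries after centering. The nearest to DMD were TCAF1 (0.042), EXOSC6 (0.067) and TRAPPC9 (0.076). The nearest to SGCA were NHERF1 (0.034), the tropomyosin gene TPM1 (0.040) and PDK2 (0.041), a kinase of pyruvate dehydrogenase, and those to UTRN were REV3L (0.038), ZDHHC6 (0.043) and CHST14 (0.048). REV3L (mean FPKM 1.462 at 24 h and 1.338 at 36 h) and ZDHHC6 (1.155 and 0.9992) lie near the minimum of 1. There the added 1 makes changes look smaller, which brings such genes closer to a flat profile. With 6 libraries in 2 groups, many genes share such a profile, and the likeness is a description.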

How the data were processed

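Per the paper, the authors sequenced paired-end reads, used HISAT2 for mapping to Sscrofa11.1, StringTie for assembly and HTSeq for counting, and normalized the result to the deposited FPKM values, 1 column per library and none pooled. The submitters' processing notes name TopHat2, Cufflinks and HTSeq instead. Strandedness and the handling of reads shared between genes are not given in the sources used here. Depth was recovered from the FPKM steps, which gave whole fragments within 0.05 in each of 19543 genes (those detected in 3 or more libraries).

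Symbols were paired with 11804 of 25322 Ensembl identifiers, and coordinates are those of RefSeq (Sscrofa11.1). The fit of log2(FPKM + 1) used limma 3.58.1 (R 4.3.3, two-sided, eBayes with trend), for genes averaging an FPKM of 1 or more and a threshold of 0.05 after Benjamini-Hochberg adjustment. Library ratios were tested by exact permutation (scipy 1.17.1). The procedures were checked on data drawn with known answers. The members and lists were chosen with earlier results of these data known. Some genes of the complex and its glycosylation pathway are not reported here and do not enter the list counts. Named were all members and measured genes of the complex, up to 3 rises and 3 falls with the largest change in each pathway list, defining genes under the minimum, and the 3 nearest profiles of DMD, UTRN and SGCA. The 15 alternatives of the fit were quantile normalization or median-ratio scaling, the filter dropped or raised to a mean FPKM of 5, pseudocounts of 0.1 and 0.01, the replicate block, eBayes without trend, limma voom on recovered fragments and leaving out each library.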

Additional observations from a re-analysis of the deposited data

How the results depend on the processing

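DMD, SGCA and SGCE kept their direction and their call in each of the 15 alternatives, and 3 or 4 members were called in each. UTRN reversed with median-ratio scaling (0.058). The change of DTNA ranged from 0.28 to 0.98 when single libraries were left out, and it was called without 24 h replicate 4 or 6. The ratios kept their direction throughout. Of the 14060 genes tested 7156 were called, and 1176 of them had changed by 1 or more on the log2 scale in either direction, a rule that removes small changes by construction. With limma voom on the recovered fragments 7238 genes were called. Of all calls 32.4% were higher, a share that became 51.8% under median-ratio scaling and 46.2% under quantile normalization.

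The number of called genes in the list of other complex genes was 1 with no filter and from 1 to 3 without single libraries. The glycosylation list had 2 under each of the scalings, and from 1 to 4 without single libraries. The ligand list ranged from 1 to 4 and the cytoplasmic partners from 2 to 5 without single libraries, and the latter had 2 with median-ratio scaling. Leaving out a library also leaves fewer samples. The causes of these differences in counts were not tested.

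Among genes that were not called, signs reversed with median-ratio scaling for DOLK (0.088) and LAMC1 (0.16), and with quantile normalization for DOLK (0.024). Without single libraries LAMC1 ranged from -0.089 to 0.053, HSPG2 from -0.039 to 0.19 and ANK2 from -0.21 to 0.22. Replicate numbers 4, 5 and 6 occur in each group, but deviations from the group means correlated at 0.15, -0.02 and 0.18, so they were not taken to pair the libraries. With the replicate block 7034 genes were called, CD151 was the only gene of the complex and pathway lists whose call changed, and the log2 change of DMD stayed at 0.77 (adjusted p = 0.00866). The smallest observable step was an FPKM of 0.0457 to 0.0610 for a gene of 1 kb.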
